A study of Mus musculus with 8 samples.

Results

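The H2 genes of the mouse make up the major histocompatibility complex (MHC), and 34 of the 21938 protein-coding genes of chromosomes 1 to 19, X and Y in the GENCODE M21 annotation of GRCm38 have a symbol that starts with H2-. All 34 lie on chromosome 17, between 33996017 (H2-K1) and 37483552 (H2-M2), a span of 3.49 Mb. They were split by class into 24 class I genes, 9 class II genes and H2-Ke6, which carries the prefix for its position alone and encodes a hydroxysteroid dehydrogenase. The class I genes comprise 2 of the K and D group, 6 of the Q group, 4 of the T group and 12 of the M group. The class II genes comprise 4 of the A and E group (H2-Ab1, H2-Aa, H2-Eb1 and H2-Eb2) and 5 of the DM and O group (H2-DMa, H2-DMb1, H2-DMb2, H2-Oa and H2-Ob). A further 11 H2 symbols are annotated as pseudogenes of some kind and were left out.

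The mark measured was 5-hydroxymethylcytosine (5-hmC), an oxidized form of methylated cytosine produced by TET enzymes. It was measured by hMeDIP-seq, in which sheared genomic DNA is pulled down with an antibody against 5-hmC and sequenced. The cells were pro-B cells, sorted as B220+CD43+IgM- from the bone marrow of C57BL/6 mice of 4 to 6 weeks, and there were 2 libraries for each genotype. The HDAC7-KO libraries came from Hdac7 fl/- mice in which Cre, knocked into the Cd79a (mb1) locus, is made in the B cell lineage. The WT libraries are labeled as wild-type, and according to the methods the control littermates were Hdac7+/-, so that both genotypes carry 1 null allele in every cell; whether the controls also carry Cre is not given in the sources used here. The labels do not say how many mice made up a library, so p-values measure only the spread between these libraries.

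Class I molecules present peptides made inside the cell to CD8 T cells, and class II molecules present peptides from endosomes to CD4 T cells. H2-K1 and H2-D1 encode the classical class I heavy chains, whereas the Q, T and M genes encode nonclassical chains, several of them known from vomeronasal neurons. H2-Aa and H2-Ab1 encode the chains of the classical I-A molecule and H2-Eb1 the beta chain of I-E, whose alpha chain gene is defective in C57BL/6 mice. H2-DM loads peptides onto class II molecules in endosomes, and H2-O inhibits it, mainly in B cells. Mature B cells express class II genes constitutively under the coactivator CIITA. The peak lists hold no expression values, so expression of these genes in the sorted pro-B cells was not measured here.

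The deposited lists hold the start and the end of each 5-hmC peak, called in each library separately, without height or score, so that sequencing depth cannot be read from them. The values reported are the number of peaks in a window, which is the gene body with 2 kb on each side, and the bases of the window that lie under a peak, per kb of window. The 4 lists held from 1305200 to 1414862 peaks in all and from 50315 to 54964 on chromosome 17. The peak density of chromosome 17 over that of chromosomes 1 to 13 was 1.05 and 1.03 in WT and 1.04 and 1.15 in HDAC7-KO, and HDAC7-KO replicate 2 lay 1.10 times above the mean of the others. That library also had the widest peaks on the chromosome (median 177 bp, against 145 to 164 bp). The Hdac7 window itself held 60 and 47 peaks in WT and 56 and 47 in HDAC7-KO, and a list of peaks shows neither the deletion of the gene nor the cell type that was sorted.

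Several stretches of sequence show what the peaks of H2 genes covered. The letters are those of GRCm38 on the plus strand, in lower case with each CpG, the usual site of 5-hmC, in capitals. The first 4 are the widest intervals of either class that lay under a peak in all 4 libraries, a pair for each class. They held 1, 4, 0 and 1 CpG in the order shown, and the H2-T3 stretch is rich in short, interrupted CA repeats.
H2-DMa intron, chr17:34123545-34123817, plus strand: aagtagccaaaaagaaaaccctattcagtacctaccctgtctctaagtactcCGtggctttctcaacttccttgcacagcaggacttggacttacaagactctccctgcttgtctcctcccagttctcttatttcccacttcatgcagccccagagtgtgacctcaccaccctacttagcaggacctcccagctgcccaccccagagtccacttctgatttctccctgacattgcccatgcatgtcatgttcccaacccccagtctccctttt
H2-DMb1 downstream flank, chr17:34161282-34161478, plus strand: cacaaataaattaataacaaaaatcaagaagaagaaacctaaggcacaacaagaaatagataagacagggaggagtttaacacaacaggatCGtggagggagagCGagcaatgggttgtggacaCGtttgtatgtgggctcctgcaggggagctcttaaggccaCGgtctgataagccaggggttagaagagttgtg
H2-T3 upstream flank, chr17:36191468-36191723, plus strand: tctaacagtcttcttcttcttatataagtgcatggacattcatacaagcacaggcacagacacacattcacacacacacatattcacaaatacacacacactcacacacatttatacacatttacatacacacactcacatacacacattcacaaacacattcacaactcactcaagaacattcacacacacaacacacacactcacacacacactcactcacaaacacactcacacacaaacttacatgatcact
H2-M5 downstream flank, chr17:36983025-36983244, plus strand: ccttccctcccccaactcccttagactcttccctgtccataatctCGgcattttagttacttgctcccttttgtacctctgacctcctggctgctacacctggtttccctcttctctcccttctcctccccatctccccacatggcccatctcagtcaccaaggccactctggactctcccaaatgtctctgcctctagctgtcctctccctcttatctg
The next stretches separated the genotypes. They are merged regions, which each library's peaks cover in part. The first 2 had a peak in both HDAC7-KO libraries and in neither WT library, and are the widest such regions of either class. Peaks covered 159 and 249 bases of the H2-Eb2 region and 93 and 301 of the H2-M2 region in HDAC7-KO. The last had a peak in both WT libraries (204 and 372 bases) and neither HDAC7-KO library, and is the widest such class I region, shown for its central 300 bp.
H2-Eb2 intron, chr17:34326657-34326928, plus strand: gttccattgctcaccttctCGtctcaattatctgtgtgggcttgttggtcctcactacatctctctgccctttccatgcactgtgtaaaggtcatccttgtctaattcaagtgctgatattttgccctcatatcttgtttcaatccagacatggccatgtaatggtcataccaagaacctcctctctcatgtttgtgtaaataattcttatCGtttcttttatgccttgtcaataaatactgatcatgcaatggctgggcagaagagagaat
H2-M2 downstream flank, chr17:37479841-37480140, plus strand: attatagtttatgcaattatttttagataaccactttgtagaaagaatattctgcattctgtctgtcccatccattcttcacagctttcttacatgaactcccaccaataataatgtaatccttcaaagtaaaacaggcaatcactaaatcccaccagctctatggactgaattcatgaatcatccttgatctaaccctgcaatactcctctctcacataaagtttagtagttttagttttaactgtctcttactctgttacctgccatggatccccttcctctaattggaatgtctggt
H2-Q6 coding exon and intron, chr17:35425071-35425370, plus strand: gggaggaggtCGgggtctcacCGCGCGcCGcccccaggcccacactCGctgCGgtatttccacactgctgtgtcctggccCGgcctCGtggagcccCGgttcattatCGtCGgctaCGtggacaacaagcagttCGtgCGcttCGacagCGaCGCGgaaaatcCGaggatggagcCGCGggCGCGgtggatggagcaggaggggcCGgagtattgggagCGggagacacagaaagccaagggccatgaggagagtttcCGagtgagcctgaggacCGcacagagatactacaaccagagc
The H2-Eb2 stretch held 2 CpG and the H2-M2 stretch none, whereas the H2-Q6 stretch, in a coding exon and the intron beside it, held 28. Of the H2-Q6 stretch, 61.3% lay in runs of 50 bases that occur more than once in the genome, so that a read placed there can belong elsewhere. Where the other copies lie was not looked up.

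Class II genes carried more 5-hmC peaks per kb than class I genes in each of the 4 libraries. Their 7 merged windows (129533 bp) held 0.942 and 0.834 peaks per kb in WT and 0.965 and 0.672 in HDAC7-KO. The 24 class I windows (201904 bp) held 0.674 and 0.604 peaks per kb in WT and 0.584 and 0.614 in HDAC7-KO. The ratio of class I to class II was 0.732 (geometric mean), below 1 in 4 of 4 libraries, and the two-sided exact sign-flip permutation test gave p = 0.125, the smallest that 4 libraries allow. By bases the ratio was 0.651 and 0.641 in WT, 0.671 in HDAC7-KO replicate 1 and 1.05 in HDAC7-KO replicate 2 (geometric mean 0.737, exact sign-flip permutation p = 0.25).

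**Figure D1:**
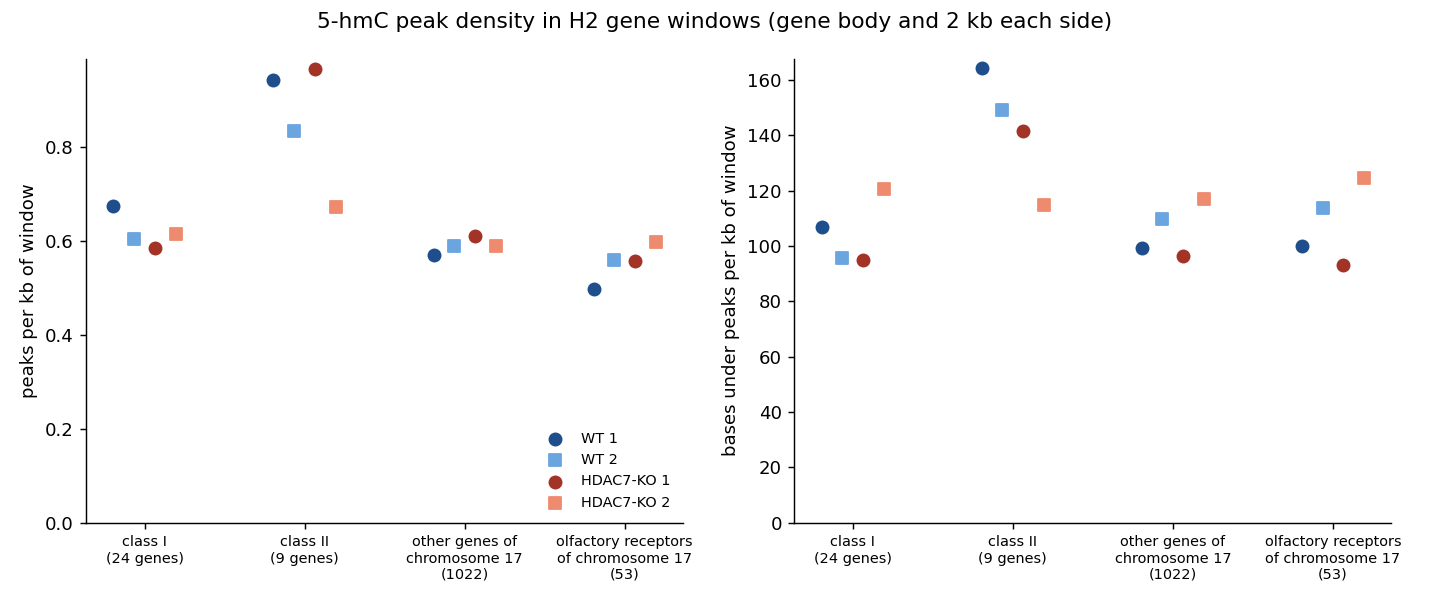
Peaks per kb of window (left) and bases under peaks per kb of window (right) for class I genes, class II genes, the other 1022 protein-coding genes of chromosome 17 and its 53 olfactory receptor genes, with 1 point for each library. Class II points lie from 0.672 to 0.965 peaks per kb, above the class I point of the same library in 4 of 4 libraries, and HDAC7-KO replicate 2 is the lowest class II point in both panels.

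The other 1022 protein-coding genes of the chromosome, measured in the same way, held 0.570 and 0.590 peaks per kb in WT and 0.611 and 0.589 in HDAC7-KO. Class II density was 1.65, 1.41, 1.58 and 1.14 times theirs in WT 1, WT 2, HDAC7-KO 1 and HDAC7-KO 2 (geometric mean 1.43, 4 of 4 above 1, exact sign-flip permutation p = 0.125). By bases the class II excess was 1.66, 1.36 and 1.47 in the first 3 libraries and 0.982 in HDAC7-KO replicate 2. The DM and O group alone lay above the other genes by bases in each library, by 1.81, 1.44, 1.68 and 1.08. The 100 kb bins that start 0.4 to 1.1 Mb past the start of the H2-K1 window hold no H2 gene. The other chromosome 17 genes held 99.2 and 110 bases per kb in WT and 96.4 and 117 in HDAC7-KO. All these bins but that from 0.7 Mb held more in each library. Class II windows held 164 and 149 in WT and 142 and 115 in HDAC7-KO, with bins on both sides in each library. Whether the class II excess belongs to its genes or to the wider region was not tested. Class I genes stood close to the rest of the chromosome, with a geometric mean of 1.05 by peaks and 0.990 by bases, and their direction was not the same in all 4 libraries. Within class I, H2-K1 and H2-D1 together held 1.39 times the peak density of the other chromosome 17 genes (4 of 4 above 1, exact p = 0.125), and the M group 0.990 times. By bases H2-K1 and H2-D1 lay above in 3 of 4 libraries, with 0.907 in HDAC7-KO replicate 2 (geometric mean 1.34, exact p = 0.25).

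The classes also differed in sequence. Class II windows held 14.2 CpG per kb and class I windows 11.9, with 21.5 in the K and D group and 6.26 in the M group. Stretches of 50 bases that occur elsewhere in the genome covered 10.7% of the bases of class II windows and 36.2% of those of class I windows. Of all 50-base stretches they were 4.89% in class II and 20.5% in class I, with 64.5% at H2-Q7 and 55.7% at H2-Q6. When bases in such stretches were left out and peaks were counted by midpoint, the ratio of class I to class II was 0.812 by peaks and 0.841 by bases. Across the 34 genes the mean coverage had a weak Spearman correlation with CpG per kb (rho 0.31) and with the share of repeated stretches (rho -0.27), a description over genes that share the same libraries.

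Every class II gene had peaks in all 4 libraries. H2-DMb1, the beta chain of the peptide-loading H2-DM molecule, was the most covered of the 34, with 285 and 222 bases per kb in WT and 224 and 179 in HDAC7-KO. H2-DMa, the alpha chain, held 175 and 173 bases per kb in WT and 194 and 170 in HDAC7-KO. The H2-DMa values changed little from library to library, and both genes lay well above the median gene of the rest of chromosome 17 (104 bases per kb). The H2-DMa window also reaches into Brd2, a bromodomain gene. H2-DMb2, the second beta chain gene, held 188 and 94.5 bases per kb in WT and 177 and 85.6 in HDAC7-KO, so that its libraries fell into a high and a low pair that both held 1 library of each genotype. Its window shares 2484 bp with that of H2-DMb1.

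The genes of the inhibitor differed from each other. H2-Oa, the alpha chain of H2-O, held 10 and 6 peaks in WT and 5 and 4 in HDAC7-KO, but its bases overlapped between the genotypes (219 and 59.8 per kb in WT, 154 and 104 in HDAC7-KO). H2-Ob, the beta chain, held 97.9 and 159 bases per kb in WT and 72.9 and 83.6 in HDAC7-KO. Both HDAC7-KO values of H2-Ob lay below both WT values, while its peak counts overlapped (11 and 15 in WT, 14 and 8 in HDAC7-KO). By bases, 17.1% of all protein-coding genes were lower in the same way.

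**Figure D2:**
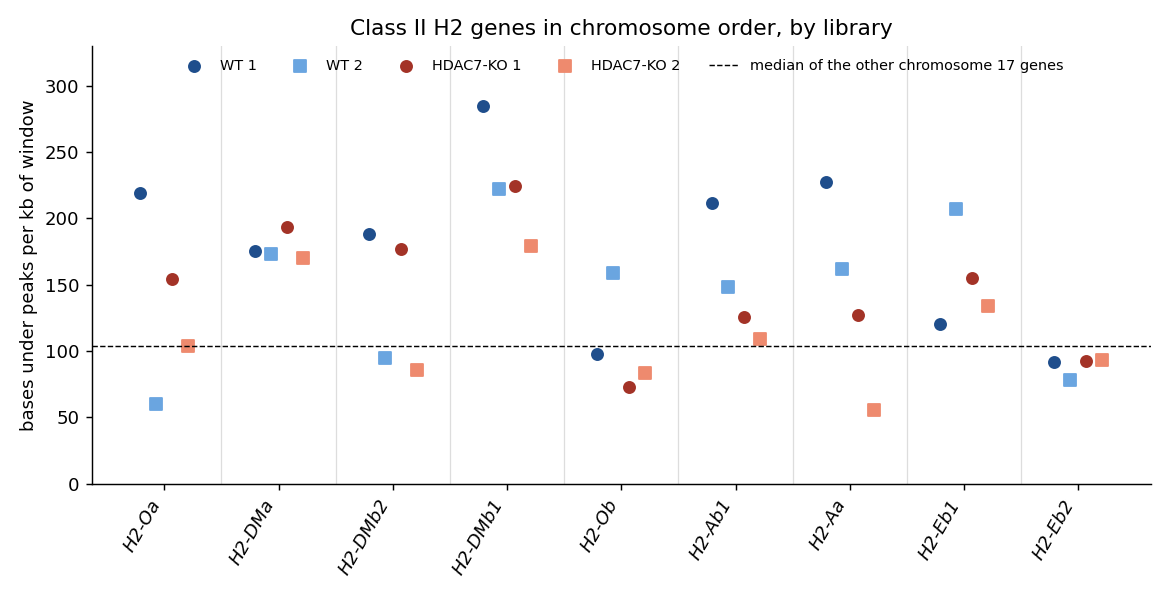
Bases under peaks per kb of window for the 9 class II genes in chromosome order, with 1 point for each library and the median of the other chromosome 17 genes (104 bases per kb) as a dashed line. The HDAC7-KO points lie below both WT points at H2-Ob, H2-Ab1 and H2-Aa, and above both at H2-Eb2 by a narrow margin. Of all protein-coding genes, 17.1% were lower and 10.3% higher in this way.

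Both I-A genes held fewer bases under peaks in each HDAC7-KO library than in either WT library. With H2-Ob, 3 of the 9 class II genes were lower in this way, beside 17.1% of all protein-coding genes and 14.3% of those on chromosome 17. H2-Ab1, which encodes the I-A beta chain, held 211 and 148 bases per kb in WT and 125 and 109 in HDAC7-KO. Its peak count went the other way, with 15 and 14 peaks in WT and 16 and 17 in HDAC7-KO, so that its HDAC7-KO peaks were more numerous and covered less. H2-Aa, which encodes the I-A alpha chain, held 227 and 162 bases per kb in WT and 127 and 55.7 in HDAC7-KO, with 10 and 8 peaks in WT and 8 and 4 in HDAC7-KO. H2-Eb1, the I-E beta chain, overlapped between genotypes (121 and 207 bases per kb in WT, 155 and 134 in HDAC7-KO). H2-Eb2, a related beta chain gene, was the least covered class II gene, and held 91.9 and 78.3 bases per kb in WT and 92.2 and 92.9 in HDAC7-KO, so that WT replicate 1 all but met the HDAC7-KO libraries.

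Summed over the class, class II windows held 164 and 149 bases under peaks per kb in WT and 142 and 115 in HDAC7-KO, and both HDAC7-KO values lay below both WT values. The ratio of HDAC7-KO to WT was 0.818 ± 0.133 (SD propagated from the replicates, n = 2 a group), with a two-sided exact permutation p of 0.333, the smallest that 2 against 2 libraries allow. The peak density did not separate the genotypes (ratio 0.922 ± 0.247, exact permutation p = 1). Without HDAC7-KO replicate 2 the ratio by bases was 0.903, and that by peaks 1.09. Scaled to the other chromosome 17 genes of the same library, class II bases were 1.66 and 1.36 in WT and 1.47 and 0.982 in HDAC7-KO. The genotypes then overlapped (ratio 0.812, exact permutation p = 0.667). The stretch from the first to the last class II window (34090340 to 34343412), with the genes and spaces between, held 168 and 153 bases per kb in WT and 137 and 130 in HDAC7-KO, a ratio of 0.830 ± 0.0614 (exact permutation p = 0.333). This stretch was added as a measure after the class II values had been seen. The other chromosome 17 genes had a ratio of 1.02 ± 0.156 by bases.

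Class I windows held 107 and 95.7 bases per kb in WT and 95.1 and 121 in HDAC7-KO (ratio 1.06 ± 0.198, exact permutation p = 1). HDAC7-KO replicate 2, the library with the highest density on chromosome 17, was the highest library in class I and the lowest in class II. The ratio of class I to class II by bases was 1.33 times higher in HDAC7-KO than in WT (exact permutation p = 0.333), a difference that rests on HDAC7-KO replicate 2 since the other 3 libraries lay between 0.641 and 0.671. All 34 windows together (337465 bp) held 129 and 117 bases per kb in WT and 113 and 117 in HDAC7-KO (ratio 0.931 ± 0.0725, exact permutation p = 0.667).

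**Figure D3:**
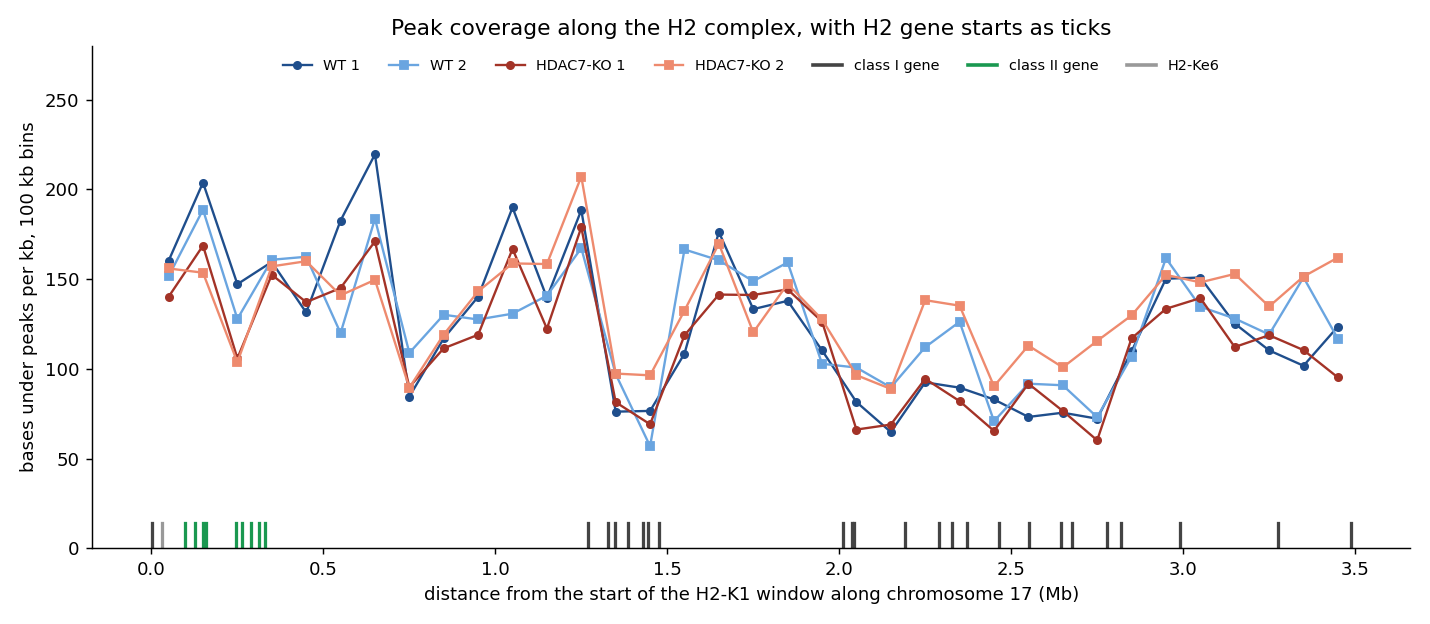
Bases under peaks per kb in bins of 100 kb along chromosome 17 from the start of the H2-K1 window, with 1 line for each library and the starts of the 34 H2 genes as ticks. In the bins from 0.1, 0.2 and 0.3 Mb, which hold the starts of most class II genes, both HDAC7-KO lines lie below both WT lines, as they do in the bin from 0.6 Mb, which holds no H2 gene, and HDAC7-KO replicate 2 is the highest line over much of the class I M group.

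Class I genes were spread more widely than class II genes, from 22.2 to 206 bases per kb as means over 4 libraries. Class I genes are also more numerous (24 against 9) and have shorter windows (median 8298 bp against 14808 bp). The part of this in their spread was not tested. H2-M3, which presents formylated peptides, was the most covered, with 227 and 180 bases per kb in WT and 207 and 212 in HDAC7-KO. H2-T3, the thymus leukemia antigen, followed with 142 and 215 in WT and 177 and 217 in HDAC7-KO. H2-M2, a class I-like gene of the M group, held 234 and 116 in WT and 122 and 210 in HDAC7-KO. Only H2-M3 of these kept its 4 libraries within a narrow range.

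The classical genes differed from each other. H2-D1 held 198 and 163 bases per kb in WT and 213 and 106 in HDAC7-KO. H2-K1 held 105 and 135 in WT and 105 and 106 in HDAC7-KO, near the median of the other chromosome 17 genes. Neither gene separated the genotypes.

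The lowest coverage was found at 3 genes of the M group. H2-M10.2 held 8.14 and 43.6 bases per kb in WT and 34.3 and 2.71 in HDAC7-KO, and only 6 peaks over the 4 libraries. H2-M10.1 held 17.5 and 50.6 in WT and 18.1 and 63.4 in HDAC7-KO. H2-M9 held 41.9 and 89.3 in WT and 78.4 and 19.1 in HDAC7-KO. The M10 genes are among the class I-like genes known from vomeronasal neurons. Of the other chromosome 17 genes, 2.25% had a mean below that of H2-M10.2.

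**Figure D4:**
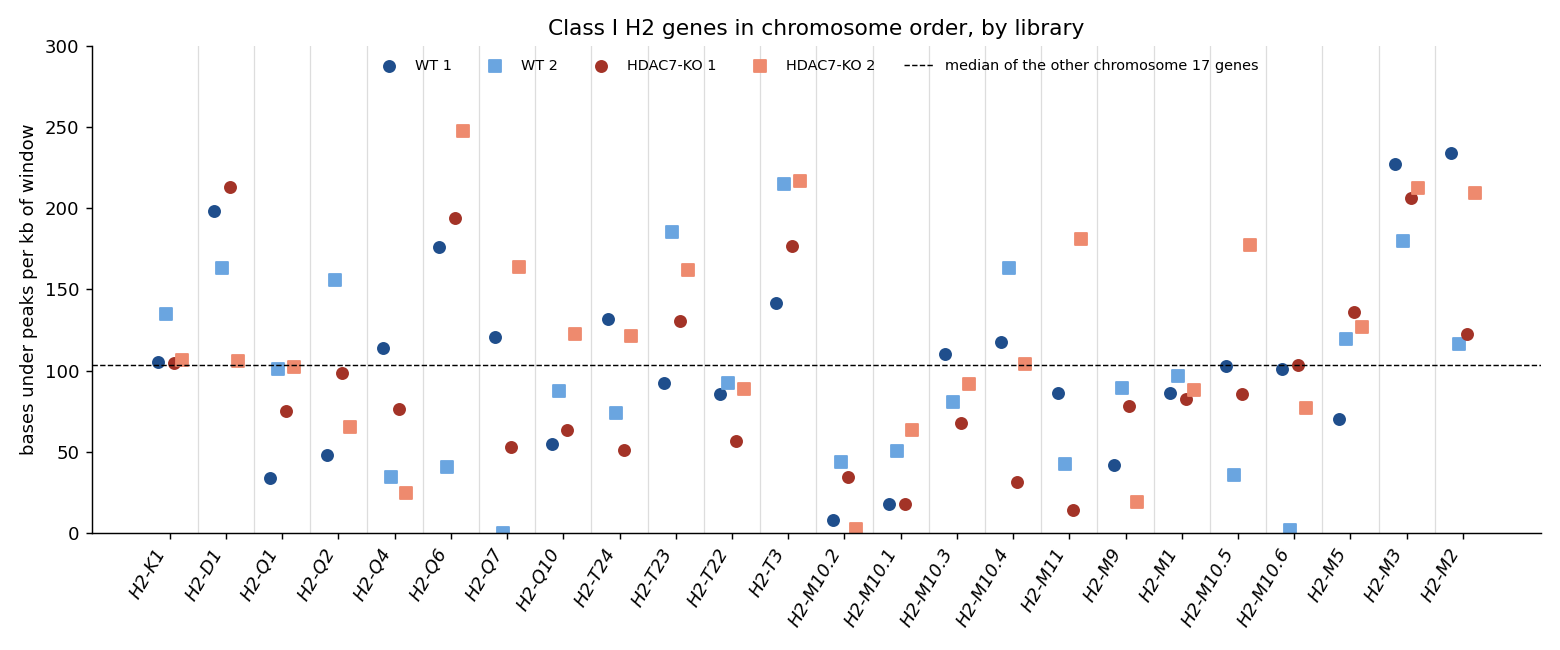
Bases under peaks per kb of window for the 24 class I genes in chromosome order, with 1 point for each library and the median of the other chromosome 17 genes (104 bases per kb) as a dashed line. The genes range from 22.2 (H2-M10.2) to 206 (H2-M3) as means, and the 4 libraries of 1 gene are often as far apart as different genes.

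By peak count, 2 of the 34 genes were higher in both HDAC7-KO libraries than in both WT libraries (H2-Ab1 and H2-Q6), where 11.4% of all protein-coding genes and 12.7% of those on chromosome 17 were. A further 6 were lower (H2-Ke6, H2-Oa, H2-Q4, H2-T24, H2-T3 and H2-M10.4), a share of 17.6% beside 10.6% of all protein-coding genes and 9.85% of those on chromosome 17. By bases, 3 were higher (H2-Eb2, H2-Q6 and H2-M5), beside 10.3% of all genes and 11.2% on chromosome 17. By bases, 5 were lower (H2-Ke6, H2-Ob, H2-Ab1, H2-Aa and H2-M10.4), a share of 14.7% beside 17.1% of all genes and 14.3% on chromosome 17. The shares by bases lie near or under the background. With 2 libraries a genotype no single gene can pass a test.

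Only 3 of the 34 genes went the same way by both measures, 1 higher in HDAC7-KO and 2 lower. The background was 4.06% higher and 5.59% lower over all protein-coding genes, and 3.88% higher and 3.88% lower on chromosome 17, so these shares lie near it. H2-Q6, a class I-like gene, held 7 and 1 peaks in WT and 8 and 8 in HDAC7-KO, and 1620 and 372 bases in WT and 1785 and 2281 in HDAC7-KO. WT replicate 1 lay close to the HDAC7-KO libraries, and the low value was that of WT replicate 2 alone. The neighboring H2-Q7, which encodes a Qa-2 chain, held 8 and 0 peaks in WT and 4 and 6 in HDAC7-KO, and its 0 in WT replicate 2 was the only empty window among the 34 genes in any library. Both genes are those with the largest shares of repeated 50-base stretches, and the part of read placement in their values was not tested. H2-Ke6 held 4 and 5 peaks in WT and 3 and 2 in HDAC7-KO, and 820 and 719 bases in WT and 428 and 175 in HDAC7-KO. Its window reaches into Ring1, a Polycomb gene, and Slc39a7, a zinc transporter gene, and has 44.6 CpG per kb, the most of the 34. H2-M10.4, a class I-like gene of the M group, held 4 and 4 peaks in WT and 2 and 3 in HDAC7-KO, and 873 and 1212 bases in WT and 233 and 771 in HDAC7-KO.

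Merging peaks of the 4 lists that share at least 1 bp gave 432 regions in the H2 windows, of which 57 (13.2%) had a peak in all 4 libraries. A gained region is one with peaks in the 2 HDAC7-KO libraries and in neither WT library, and a lost region is the reverse. The H2 windows held 9 gained regions (2.08%), beside 2.92% of regions in the genome and 3.08% on chromosome 17. They held 18 lost regions (4.17%), beside 2.4% in the genome and 2.2% on chromosome 17. Class I windows held 7 gained and 7 lost regions of 241. Class II windows held 2 gained and 11 lost regions of 184, or 1.09% and 5.98%. In class II, regions with peaks in 1 WT and 1 HDAC7-KO library alone numbered 12 for WT 1 and HDAC7-KO 1, 9 for WT 1 and HDAC7-KO 2, and 6 and 3 for WT 2 with the same libraries. The 11 lost regions lie within this range, near its upper end, and the 2 gained regions lie below it. Over all 34 genes these pairs had 27, 18, 13 and 7, beside the 18 lost and 9 gained regions. Of the 11 lost class II regions, 9 lay in the DM and O group (8.57% of its 105 regions). H2-Ob alone held 4, H2-DMa 2, and H2-Oa, H2-DMb2, H2-DMb1, H2-Ab1 and H2-Aa 1 each. The counts are small, and the share of regions lost is given as a description with no test.

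**Figure D5:**
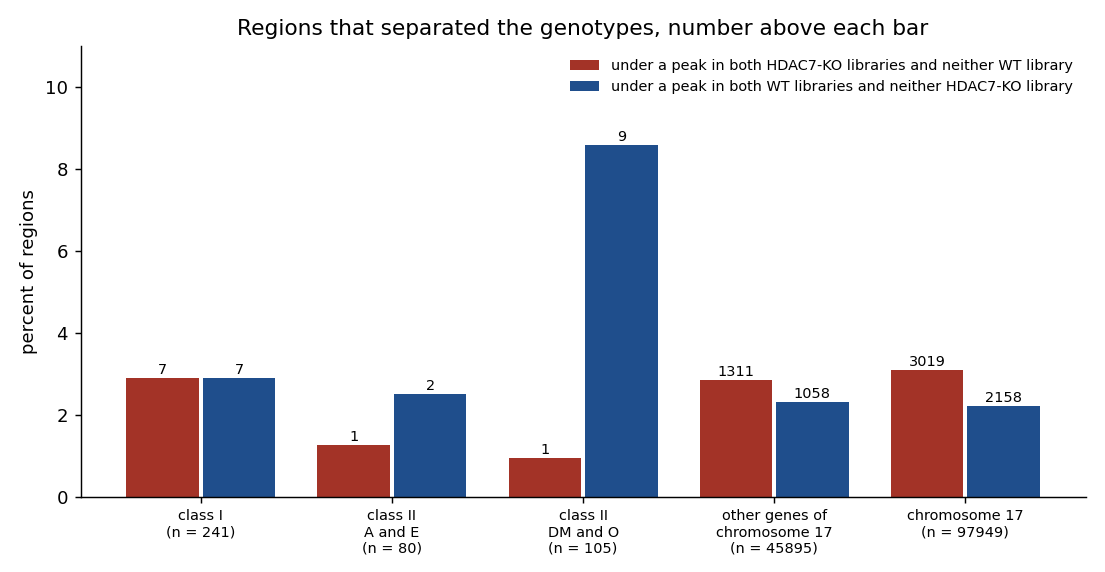
Percent of merged regions under a peak in both HDAC7-KO libraries and neither WT library (red) and the reverse (blue), for class I, the pair of class II groups, the other chromosome 17 genes and the whole chromosome, with the number of regions above each bar. The highest bar is that of the 9 lost regions of the DM and O group (8.57%), and the other bars lie between 0.952% and 3.08%.

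The widest lost region of class II, 660 bp of H2-Ob from 34245797 to 34246456 across an untranslated exon and an intron, held 303 and 660 bases under peaks in WT. The lost region of H2-Ab1 lay in a coding exon (34267199 to 34267535) and held 193 and 337 bases in WT. That of H2-Aa lay in an intron (34287096 to 34287462) and held 211 and 250. In H2-DMa, lost regions of 349 bp and 396 bp lay in an intron and at coding and untranslated exons. The 349 bp region held 338 and 238 bases in WT. The 396 bp region held only 17 in WT 1 and 396 in WT 2. The lost region of H2-DMb2 held 251 in WT 1 and only 11 in WT 2. Gained regions of class II were an intronic region of H2-Eb2, whose sequence is given with the others, with 159 and 249 bases under peaks in HDAC7-KO, and a region of 156 bp in an untranslated exon of H2-Ob. In class I, gained regions at the promoters of H2-Q1 (225 bp), H2-Q6 (77 bp) and H2-Q7 (283 bp) were the 3 gained regions of the Q group. Other bases of the H2-Q7 promoter were covered in WT replicate 1, so that the whole promoter held 200 and 0 bases in WT and 225 and 205 in HDAC7-KO.

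Exons made up 19.6% of class II windows and held from 12.6% to 21.9% of their peak bases. Introns made up 55.1% of class II windows and were covered at 165 and 148 bases per kb in WT and 164 and 104 in HDAC7-KO. In class I, introns were less covered (81.5 and 74.1 bases per kb in WT, 79.7 and 79.3 in HDAC7-KO) than the 2 kb flanks (132 and 109 in WT, 122 and 152 in HDAC7-KO) in 4 of 4 libraries. CpG density under class I peaks was 12.5 and 12.4 per kb in WT and 8.55 and 9.72 in HDAC7-KO, and the genotypes did not overlap. This difference was not tested and has no background share beside it. Class I peaks in WT held 271 and 239 CpG in all, and the lost H2-Q6 region, which they covered in part or whole, has 38. CpG density under class II peaks was 12.2 and 13.1 per kb in WT and 11.6 and 12.4 in HDAC7-KO. Under all peaks of chromosome 17 it was 9.51 and 9.37 in WT and 9.40 and 8.71 in HDAC7-KO. The intervals under a peak in all 4 libraries were poorer still in CpG at class I genes, with 4.89 per kb, and 16 of the 25 such intervals held no CpG, as did 57.4% of such intervals on the whole chromosome.

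Promoters, taken as 1000 bp before to 100 bp after the gene start, had a peak in 15 and 14 of the 34 genes in WT and in 16 and 15 in HDAC7-KO. Only 3 promoters had one in all 4 libraries (H2-Eb1, H2-Eb2 and H2-T3), or 8.82%, beside 20.9% of all protein-coding genes and 23.1% of the other chromosome 17 genes. By class they were 2 of 9 class II promoters (22.2%), near these shares, and 1 of 24 class I promoters (4.17%). The H2-Eb1 promoter held 241 and 328 bases under peaks in WT and 249 and 202 in HDAC7-KO, a narrow range. That of H2-Eb2 held 249 and 13 in WT and 236 and 372 in HDAC7-KO. The H2-T3 promoter held 256 and 523 in WT and 484 and 471 in HDAC7-KO. The H2-Aa promoter had no peak in any library.

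The 250 bases before the RefSeq starts of the class II genes among these 3 are shown with letters that match the Y box (CTGATTGG or its reverse complement), part of the module that CIITA and its partners use, or the core of an interferon regulatory factor site (AANNGAAA or its reverse complement) in capitals. The 2 motifs do not share bases here.
H2-Eb1 promoter, chr17:34305617-34305866, plus strand: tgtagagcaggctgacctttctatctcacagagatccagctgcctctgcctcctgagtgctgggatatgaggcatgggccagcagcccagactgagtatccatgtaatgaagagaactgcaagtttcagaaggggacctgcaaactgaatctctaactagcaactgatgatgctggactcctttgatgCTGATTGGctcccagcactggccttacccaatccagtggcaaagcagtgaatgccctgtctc
H2-Eb2 promoter, chr17:34325425-34325674, plus strand: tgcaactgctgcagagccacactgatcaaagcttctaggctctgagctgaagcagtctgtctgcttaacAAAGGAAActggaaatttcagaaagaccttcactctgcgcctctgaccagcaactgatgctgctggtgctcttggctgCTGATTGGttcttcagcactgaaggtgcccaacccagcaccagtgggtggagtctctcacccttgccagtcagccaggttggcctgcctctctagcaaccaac
In the H2-Eb1 stretch no peak reached these bases in 3 libraries, and 37 were covered in HDAC7-KO replicate 2, since its promoter peaks lay further upstream. In the H2-Eb2 stretch 45 and 0 bases were covered in WT and 186 and 171 in HDAC7-KO. RefSeq promoters (GRCm38.p6, 250 bases before to 50 after each start) were matched for 22 class I and 8 class II genes. H2-Q1, H2-T24 and H2-Ab1 had none. The Y box was found in 13 of 22 class I and 4 of 8 class II genes, beside 4.10% of all 32851 promoters of that length, and the interferon factor core in 14 of 22 and 4 of 8, beside 23.9%. The H2 counts are of genes, with a match in any of their promoters, whereas the shares are of promoters. Some class I promoters are near copies, such as those of H2-M9 and H2-M1, so their matches are not separate observations. Class I genes with the Y box included H2-K1, H2-D1 and most genes of the M group, among them H2-M10.1 and H2-M9, so that these letters were found both at the classical genes and at 2 of the 3 least covered class I genes.

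Genes that work with H2 molecules were measured in the same windows. The class I list comprised 13 genes for the light chain, peptide supply and folding (B2m, Tap1, Tap2, Tapbp, Tapbpl, Psmb8, Psmb9, Psmb10, Erap1, Calr, Canx, Pdia3 and Nlrc5). Both measures were lower in both HDAC7-KO libraries at 2 of 13, and higher at none, beside 5.59% and 4.06% of all protein-coding genes. Tap1, a subunit of the peptide transporter, held 3820 and 3106 bases in WT and 1909 and 1882 in HDAC7-KO, with 24 and 18 peaks in WT and 13 and 14 in HDAC7-KO. Psmb9, an immunoproteasome subunit, held 1759 and 2200 bases in WT and 558 and 275 in HDAC7-KO, with 14 and 11 peaks in WT and 5 and 3 in HDAC7-KO. These adjoining genes, whose windows overlap, lie inside the class II stretch between H2-DMb1 and H2-Ob. Their neighbors Psmb8 and Tap2 did not have both measures lower, and Psmb8 held 6 and 4 peaks in WT and 7 and 7 in HDAC7-KO.

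The class II list (Cd74, Ciita, Ifi30, Ctss, Ctsl, Lgmn, Rfx5, Rfxap and Rfxank) gave 8 protein-coding genes of 9. Both measures were lower at none and higher at 1, beside the same 5.59% and 4.06% of all genes. It was the endosomal protease Lgmn, with 4391 and 4782 bases in WT and 5262 and 6016 in HDAC7-KO. Ciita, the class II coactivator, held 5797 and 5631 bases in WT and 5900 and 6226 in HDAC7-KO, while its peak counts overlapped. Cd74, the invariant chain that guides class II molecules, held 1736 and 1404 bases in WT and 1549 and 1969 in HDAC7-KO.

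Replicates ranked the H2 genes loosely. Over the 34 genes the Spearman correlation of coverage was 0.34 between the WT libraries and 0.41 between the HDAC7-KO libraries, and over the other 1022 chromosome 17 genes 0.58 and 0.63. Over the 34 genes, 3 of the 4 pairs across genotypes lay above both pairs within a genotype, with 0.62 and 0.43 for WT 1 with HDAC7-KO 1 and 2, and 0.54 and 0.25 for WT 2. Over the other chromosome 17 genes only WT 1 with HDAC7-KO 1 (0.73) lay above both. There WT 1 with HDAC7-KO 2 held 0.59, and WT 2 held 0.57 and 0.52 with HDAC7-KO 1 and 2. These describe genes in shared libraries, and H2 windows, with a median of 8570 bp, are shorter than the chromosome's median of 18184 bp.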

How the data were processed

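The authors sonicated genomic DNA to fragments of about 350 bp, pulled it down with an antibody against 5-hmC, trimmed reads (Trim Galore 0.4.2, Cutadapt 1.6) and removed duplicates (Picard 2.8.0). The methods name bwa 0.7.12 for mapping, while the submitters' processing notes name Bowtie2 and the build mm10 (GRCm38). Peaks were called per library with MACS2 bdgpeakcall (cutoff 250, minimum length and maximum gap 10 bp). Multi-copy H2 sequence can lose or misplace reads in mapping, and no setting for it is given in the sources used here. Peaks that met an input peak were removed, and whether this was done before deposit is not stated. The deposited lists give peak positions alone, with no count or score, so depth and counting error are unknown. The 4 input libraries were not analysed here, and the authors' read-based differential analysis was not repeated.

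Peaks were counted in windows of the gene body with 2 kb on each side, merged where windows overlap, with Python 3.11.15, NumPy 2.4.6, SciPy 1.17.1 and matplotlib 3.10.9. The test between genotypes was an exact permutation test, two-sided, of 2 against 2 libraries, and that between gene groups an exact sign-flip permutation test over the 4 libraries. Genes were GENCODE M21, and promoter letters were RefSeq's. Runs of 50 bases were looked up in all 21 chromosomes on both strands. Code was tested on simulated data. The text names the classical, DM and O genes, the 3 most and 3 least covered genes of each class, and genes that separate the genotypes by both measures. H2-Q7, Ciita, Cd74 and Psmb8, and the genes listed beside the counts, were named after their values were seen. The members and lists were chosen with earlier results of these data known. Alternatives were other peak widths, flanks, merging and overlap rules, scaling to the chromosome, the replicate number as a block, and each library left out.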

Additional observations from a re-analysis of the deposited data

How the results depend on the processing

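The exact permutation tests cannot pass 0.05 with these libraries under any alternative, so the directions and values below are what can be compared. The class II genotype ratio by bases stayed below 1 under each alternative, from 0.667 with peaks of at least 200 bp to 0.903 without HDAC7-KO replicate 2. After scaling to the other chromosome 17 genes it was 0.812, but the libraries of the genotypes then overlapped (exact permutation p = 0.667). Class II stayed above class I and above the other chromosome 17 genes by peaks, as a geometric mean, under each alternative run, but with peaks of at least 200 bp not in all 4 libraries (exact sign-flip permutation p = 0.25 for both). The class II genotype ratio by peaks ranged from 0.757 to 1.09 when libraries were left out and turned without HDAC7-KO replicate 2. The class I genotype ratio turned to 1.28 by peaks of at least 200 bp, and by bases to 0.971 for gene bodies alone and to 0.938 without HDAC7-KO replicate 2 (0.938 to 1.19 over libraries left out). Class I density against the other chromosome 17 genes turned to 0.979 with peaks of at least 200 bp, 0.902 for gene bodies alone and 0.942 with 10 kb flanks. The causes of these turns were not tested.

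Genes whose peak counts were higher in both HDAC7-KO libraries numbered 1 for gene bodies, with 10 kb flanks and after scaling to the chromosome, and 0 with peaks within 100 bp merged. The genes that were lower numbered 9 after scaling, 3 with 10 kb flanks and 2 with merging. By bases, genes that were higher numbered 6 with peaks of at least 200 bp and 1 after scaling. Those that were lower numbered 8 with 10 kb flanks, 7 with peaks of at least 200 bp and 7 after scaling. The shares over all protein-coding genes were not computed under these alternatives, so the counts have no background beside them. With 1 library left out the groups separate more easily by construction, and the counts were 5 to 10 and 8 to 14 by peaks (higher and lower) and 6 to 10 and 11 to 13 by bases. Gained and lost regions were then 24 to 66 and 30 to 96 in all windows, 16 to 44 and 12 to 56 in class I, and 8 to 29 and 15 to 38 in class II. With peaks of at least 200 bp, lost regions numbered 11 in all and 2 in class I. With overlap of at least 50% of the shorter peak, class II had 5 gained regions. Over the whole class II stretch, an alternative added after the data were seen, 8 of 363 regions were gained (2.20%) and 18 lost (4.96%). On chromosome 17 these shares were 3.08% and 2.2%. For the other alternatives the share of all regions was not computed. Promoters with a peak in all 4 libraries numbered 0 with peaks of at least 200 bp (mean 6 a library) and 18 with promoters of 2000 bp before to 500 bp after the start (mean 27.5).

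The replicate numbers showed little sign of pairing the libraries: the differences between replicates of the 2 genotypes correlated at 0.079 over 21938 genes and at -0.024 over the 34. Coverage over the other 1022 chromosome 17 genes correlated most between WT 1 and HDAC7-KO 1 (Spearman 0.73). Whether some libraries shared a batch was not tested. With the replicate number as a block, the genotype ratios were 0.923 and 0.933 by peaks and bases in all 34, 0.939 and 1.06 in class I and 0.908 and 0.814 in class II, each in the direction without the block. Depth is unknown and heights are not given, so a peak missed for lack of reads cannot be told apart from one that is absent.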
